A study of Mus musculus with 6 samples.

Results

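The mitochondrial ribosomal protein (Mrp) genes were followed in mouse erythroid cells treated with a peptide against the chromatin remodeler CHD4. Members were the protein-coding genes of the GRCm38 annotation whose symbol is Mrps or Mrpl followed by a number, which gave 78 of the 48709 genes in the count table. Of these, 29 carry a small-subunit symbol (Mrps) and 49 a large-subunit symbol (Mrpl), and 77 had enough counts to be tested. They are spread over 17 chromosomes.

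RNA was sequenced from G1E-ER4 cells, a single mouse line of red cell precursors. The line lacks Gata1, was made from embryonic stem cells and carries a GATA1–estrogen receptor fusion, so that tamoxifen starts its maturation. The CHD4-APR group (3 libraries) received an aggregation-prone stretch of CHD4 joined to a cell-penetrating Tat sequence, and the CTRL group (3 libraries) received a run of alanines joined to the same sequence. Both groups were given 10 μM peptide for 2 h, then tamoxifen for 28 h, and were collected at 30 h, so that no library here lacks tamoxifen or peptide. The labels name the libraries as replicates without saying whether they came from separate cultures, so p-values measure the spread between these libraries, which may be technical.

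Mitochondria keep their own ribosome, the mitoribosome, which translates the few mRNAs of the mitochondrial genome. The products of those mRNAs are core subunits of the respiratory chain and of ATP synthase. All mitoribosomal proteins are encoded in the nucleus, made in the cytosol and imported, and they assemble with mitochondrial rRNA into a small subunit that decodes mRNA and a large subunit that joins amino acids. In maturing erythroblasts, mitochondria also host the first and last steps of heme synthesis before they are cleared from the cell.

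Total counts per library lay between 41687482 and 49784177, and the common biological coefficient of variation was 5.18%. All 13 erythroid markers were measured, with Hbb-bs at 24750 CPM (counts scaled to a common library size) in CTRL and 19740 in CHD4-APR, and all 5 pluripotency markers were at 0. In the test described below 5 of the 13 erythroid markers were called lower, 1 higher and 7 not, beside 17.8% of all tested genes lower and 20.4% higher. Their log2 fold changes ran from −0.33 to 0.28, with a median of −0.11. With the length and GC correction described below 2 were lower and 1 higher (median −0.0037), beside 16.0% and 11.7% of all genes. Of 10 markers of other blood cells, Mpo and Cd3e were at 0 in every library, whereas Spi1, a myeloid factor also expressed in erythroid progenitors, stood at 187 CPM in CTRL and 159 in CHD4-APR. Of the 10, 6 averaged under 1 CPM. Among the 5 tested, 2 were called lower and 0 higher, with log2 fold changes from −0.31 to 0.44, and 0 passed with that correction. The summed level of all 10 markers was 224 to 255 CPM in CTRL and 202 to 209 CPM in CHD4-APR, and its part in the results below was not tested. In bulk RNA, fewer cells of a type and less RNA per cell cannot be told apart.

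Many Mrp promoters carried the sequence bound by ETS factors such as GABP, or that bound by NRF1, factors known to control nuclear genes of mitochondrial function. The stretches below lie just upstream of annotated starts and are taken from RefSeq promoter windows on GRCm38.p6, written 5′ to 3′ on the gene's strand. They show members with either motif that fell after CHD4-APR (Mrps18a, Mrpl43 and Mrpl12) and, for contrast, the ETS letters in front of Mrps22, which did not pass the test. Mrpl43, chosen after its values were seen because its window holds the ETS letters 2 times, had a log2 fold change of −0.16 (edgeR FDR 0.0341), was called lower in 11 of 20 settings and did not pass with the length and GC correction described below (−0.033, edgeR FDR 0.676). Capitals mark CCGGAAG for Mrps18a, Mrpl43 and Mrps22, and the NRF1 letters, GCGC and TGCGC with any base between them, for Mrpl12. Mrps18a was read from chr17:46110866-46110985 on the plus strand, Mrpl43 from chr19:45006443-45006557 on the minus strand, Mrpl12 from chr11:120484493-120484612 on the plus strand and Mrps22 from chr9:98601680-98601799 on the minus strand.
Mrps18a: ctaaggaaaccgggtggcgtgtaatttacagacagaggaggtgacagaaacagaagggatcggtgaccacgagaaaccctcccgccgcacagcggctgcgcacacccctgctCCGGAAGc
Mrpl43: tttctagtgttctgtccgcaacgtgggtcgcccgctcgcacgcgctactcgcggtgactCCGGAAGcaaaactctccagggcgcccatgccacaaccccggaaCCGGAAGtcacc
Mrpl12: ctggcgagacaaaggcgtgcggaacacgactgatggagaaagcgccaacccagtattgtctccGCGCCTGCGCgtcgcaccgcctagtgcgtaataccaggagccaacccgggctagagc
Mrps22: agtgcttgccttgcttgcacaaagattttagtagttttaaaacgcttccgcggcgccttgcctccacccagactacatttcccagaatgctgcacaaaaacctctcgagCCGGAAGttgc

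Promoter windows of 300 bases, 250 before and 50 after the start, were found for 69 members, some with more than 1 start, which gave 75 windows. CCGGAAG stood in 26 of the 75 windows (34.7%), against 19.9% of the windows of other tested genes and 8.86% of all promoter windows of the table. AAGATGGC, the core bound by YY1, stood in 12 windows (16.0%), against 4.97% and 2.75%. The NRF1 letters, which read nearly the same on both strands, stood in 13 windows (17.3%), against 11.0% and 4.6%. Both strands were searched for every motif, and a match describes letters only.

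Among the other motifs, the GC box GGGGCGGGG was in 20.0% of Mrp windows and 21.1% of the others, CCAAT in 40.0% and 39.1%, and the E-box CACGTG in 9.33% and 10.3%. The GATA letters AGATAA showed a wider gap and were in 14.7% of Mrp windows, 6.42% of the other tested genes' windows and 11.2% of all windows. By symbol, CCGGAAG was in 40.7% of small-subunit and 31.2% of large-subunit windows, AAGATGGC in 22.2% and 12.5%, the NRF1 letters in 11.1% and 20.8%, and CACGTG in 3.7% and 12.5%. These shares count windows and not genes. The 7 Mrp windows with CACGTG belong to 5 tested genes, since overlapping windows of Mrpl2 hold the same site.

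After CHD4-APR the Mrp genes were lower as a family, by small amounts. Of 77 tested, 53 fell and 0 rose at a false discovery rate (FDR) under 0.05 in edgeR's quasi-likelihood test, adjusted over all 12722 genes tested, and 24 did not pass. At an unadjusted p under 0.05, 58 were lower and 0 higher, and the share of all genes at that threshold was not counted. That is 68.8% of the Mrp genes called lower, where 17.8% of all tested genes were called lower, 20.4% higher and 38.3% in either direction. The median log2 fold change was −0.20 for the Mrp genes and −0.012 for all tested genes, and 75 of 77 values were below 0. The 53 falls were between 9.15% and 23.9%, with a median of 14.8%, and none of the genes reached a 1.5-fold change. Without CHD4-APR replicate 1, 34 members (44.2%) and 12.8% of all genes were called lower.

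The separation could be read directly from the libraries. In 61 of 77 members every CHD4-APR library was below every CTRL library, and in 0 the reverse held, where over all tested genes 25.0% separated downward, 25.0% upward and 49.9% in either direction. The other 16 members overlapped between the groups, and among the 53 called lower only Mrps16 did so. Relative to the CTRL mean, the median log2 deviation over the 77 genes was 0.046, −0.010 and −0.043 in CTRL replicates 1 to 3 and −0.24, −0.20 and −0.14 in CHD4-APR replicates 1 to 3. All 77 members were below the CTRL mean in CHD4-APR replicate 1, 70 in replicate 2 and 73 in replicate 3, so that every treated library took part, replicate 1 the most. The summed level of all members was 3520 ± 109 CPM (SD, n = 3) in CTRL, between 3424 and 3639, and 3075 ± 93.9 CPM (SD, n = 3) in CHD4-APR, between 2977 and 3164.

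**Figure D1:**
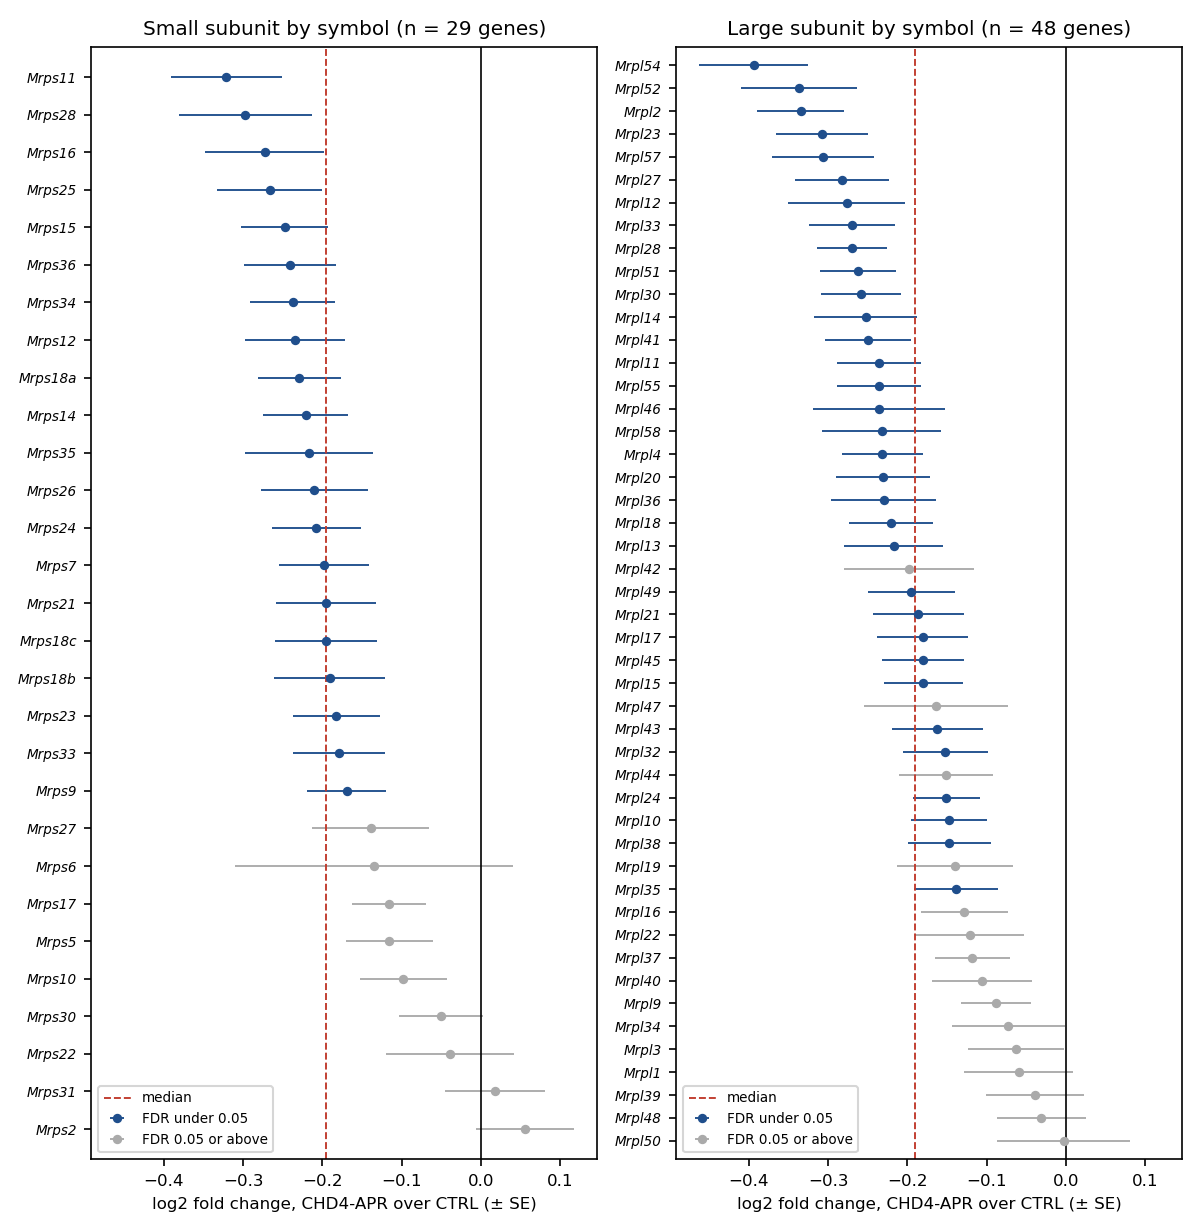
Log2 fold change of CHD4-APR over CTRL with its standard error for each tested Mrp gene, sorted within the small (29 genes) and large (48 genes) subunit; blue points have an FDR under 0.05 and the dashed line is the subunit's median. Nearly all points lie left of 0, from −0.39 for Mrpl54 to 0.056 for Mrps2, and the medians are −0.20 and −0.19.

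Small and large subunits gave nearly the same values. Of the small-subunit genes, 20 of 29 fell (69%), with a median log2 fold change of −0.20 and a range from −0.32 to 0.056. Of the large-subunit genes, 33 of 48 fell (68.8%), with a median of −0.19 and a range from −0.39 to −0.0029. The small-subunit median minus the large-subunit median was −0.00501 on the log2 scale. This difference was not tested, since genes of a family are not replicates, and it changed sign when CTRL replicate 2 (0.0178), CHD4-APR replicate 1 (0.0108) or CHD4-APR replicate 2 (0.0081) was left out, and with the principal-transcript correction described below (0.0395). Summed over genes, the small subunit went from 1098 ± 30 to 969 ± 34.4 CPM and the large subunit from 2422 ± 80 to 2106 ± 60 CPM (SD, n = 3 each).

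Symbols do not always give the place of a protein. In solved mitoribosome structures the products of Mrps30 and Mrps18a sit in the large subunit, and the product of Mrps36 sits in neither, being known as an adaptor of the oxoglutarate dehydrogenase complex. Grouped by structure, 18 of 26 small-subunit genes fell with a median of −0.20, and 34 of 50 large-subunit genes fell with a median of −0.19. The 46 genes for proteins with a counterpart in bacterial ribosomes had 33 lower and a median of −0.20, and the 30 tested genes for proteins named as specific to mitochondria had 19 lower and a median of −0.19. With the length and GC correction described below, the structural grouping gave 12 of 26 lower with a median of −0.096 for the small and 25 of 50 with −0.13 for the large subunit. The class with bacterial counterparts then had 24 lower with a median of −0.16 and the mitochondria-specific class 13 lower with a median of −0.11, and none of these differences was tested.

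Among large-subunit genes the smallest FDR belonged to Mrpl28 (ENSMUSG00000024181, chr17:26123500-26126613, plus strand), whose product has a bacterial counterpart. Its level was 98.8, 98.8 and 99.4 CPM in CTRL replicates 1 to 3 and 79.9, 83.7 and 82.8 CPM in CHD4-APR replicates 1 to 3. The groups were apart by far more than the spread within either. The log2 fold change was −0.27 ± 0.044 (SE) with an edgeR FDR of 1.85e-04. With the length and GC correction described below it was −0.094 and did not pass (edgeR FDR 0.103).

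Mrpl2 (ENSMUSG00000002767, chr17:46646229-46650139, plus strand) encodes a conserved protein next to the peptidyl transferase center. It was at 95.7, 85.0 and 84.7 CPM in CTRL and at 67.0, 71.8 and 71.8 CPM in CHD4-APR. CTRL replicate 1 was the highest library, and the groups did not overlap. Mrpl2 fell by 20.7% (log2 fold change −0.33 ± 0.055, edgeR FDR 1.91e-04).

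Mrpl54 (ENSMUSG00000034932, chr10:81264713-81266934, minus strand), a mitochondria-specific protein gene, had the lowest fold change of the 77. Its levels were 47.6, 42.6 and 39.5 CPM in CTRL and 30.8, 34.2 and 33.7 CPM in CHD4-APR. The lowest CTRL library stayed above the highest treated one. The log2 fold change was −0.39 ± 0.069, a fall of 23.9%, with an edgeR FDR of 3.14e-04.

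The remaining large-subunit genes of this rank were Mrpl51, Mrpl23 and Mrpl30. Mrpl51, mitochondria-specific, was at 125, 123 and 115 CPM in CTRL and 97.4, 99.4 and 106 CPM in CHD4-APR. Mrpl23, whose bacterial counterpart lines the exit of the peptide tunnel, was at 44.8, 40.3 and 43.1 CPM against 33.1, 35.2 and 35.3 CPM. Mrpl30, also with a bacterial counterpart, was at 164, 161 and 149 CPM against 128, 128 and 140 CPM. None of these groups overlapped, and the edgeR log2 fold changes were −0.26, −0.31 and −0.26 in that order, with FDRs of 4.88e-04, 5.88e-04 and 7.65e-04.

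Among small-subunit genes Mrps11 (ENSMUSG00000030611, chr7:78783119-78792989, plus strand), a conserved protein of the platform of the small subunit, had both the smallest FDR and the lowest fold change. It was at 37.6, 32.3 and 31.9 CPM in CTRL and at 25.9, 26.8 and 28.7 CPM in CHD4-APR. CTRL replicate 1 stood above the other controls, and all treated libraries were below all controls. The log2 fold change was −0.32 ± 0.070 with an edgeR FDR of 0.00182.

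Mrps15 and Mrps14, both with bacterial counterparts, and Mrps34, specific to mitochondria and needed for a stable small subunit, were also among the 6 small-subunit genes with the smallest FDR, with Mrps18a and Mrps36 described below. Mrps15 was at 54.2, 51.9 and 51.3 CPM in CTRL and 41.2, 45.5 and 45.8 CPM in CHD4-APR. Mrps34 was at 39.9, 38.0 and 39.0 CPM against 33.7, 32.6 and 32.8 CPM. Mrps14 was at 44.4, 44.2 and 44.2 CPM against 36.2, 39.3 and 38.5 CPM. In each the controls lay close together and above every treated library, and the edgeR log2 fold changes were −0.25, −0.24 and −0.22, with FDRs of 0.00215, 0.00239 and 0.00377. Exons of Mrps34 share 763 bases with Nme3 on the same strand and 1309 with Mapk8ip3 on the other, so its counts are less certain. Mrps15 (−0.085, edgeR FDR 0.213) and Mrps34 (−0.078, edgeR FDR 0.253) did not pass with the length and GC correction described below.

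**Figure D2:**
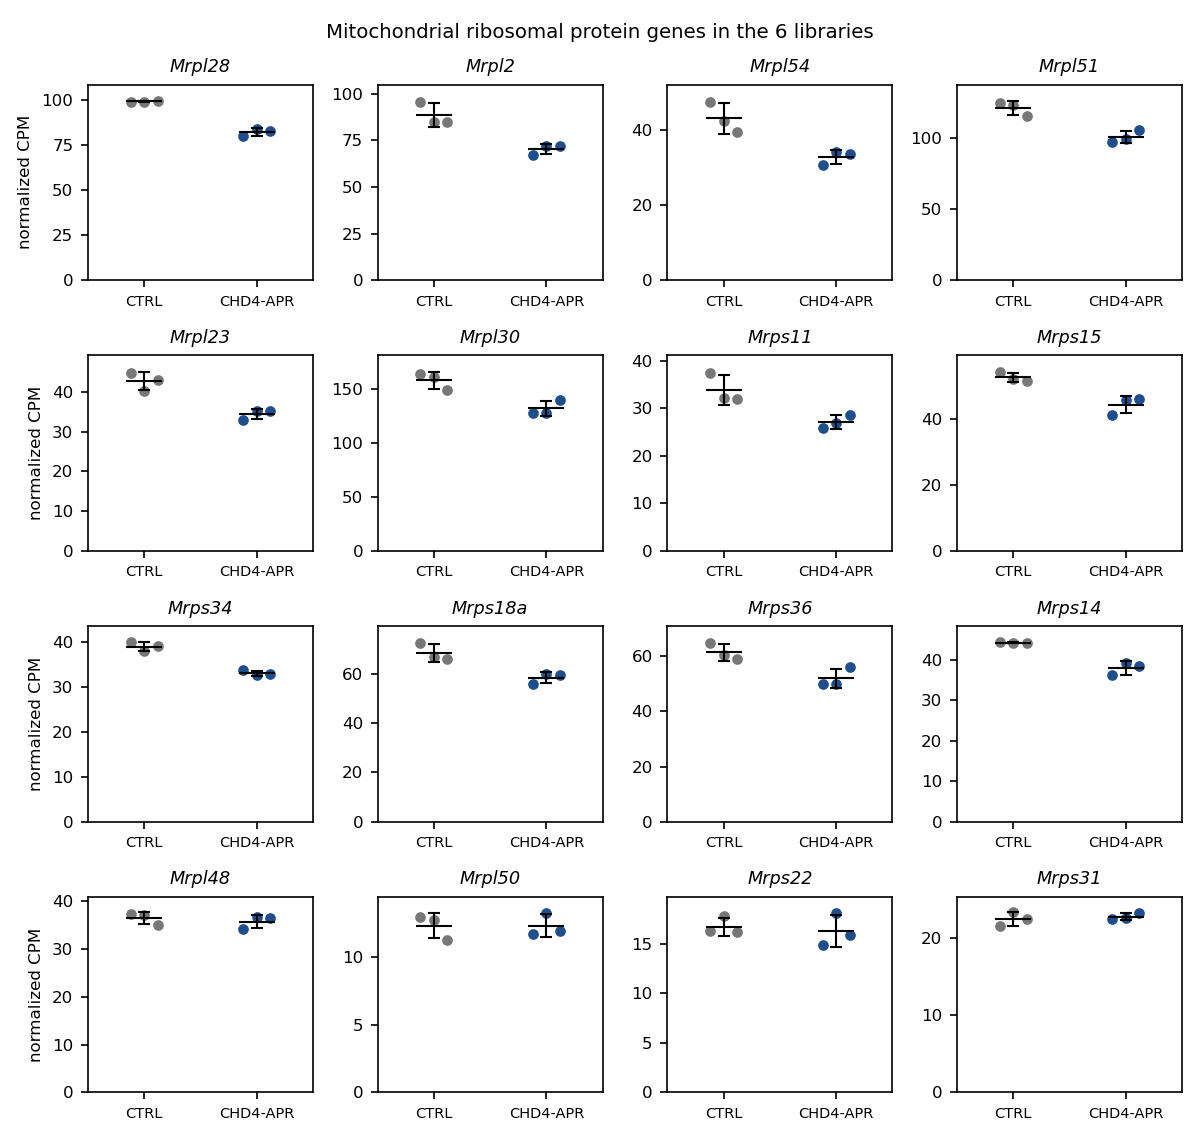
TMM-normalized CPM in each of the 6 libraries (points, with bars for the mean and SD of 3 libraries, y axes from 0). The top 3 rows show the 6 genes of each subunit with the smallest FDR, and the bottom row the genes closest to no change. The groups are apart in the top 3 rows, as in Mrpl28 (99.0 against 82.1 CPM), and overlap in the bottom row, as in Mrpl50 and Mrps31.

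Genes with roles beyond the core of the ribosome were among those that fell. Mrpl12 encodes a stalk protein that recruits translation factors and also binds the mitochondrial RNA polymerase. It was at 28.6, 24.4 and 27.8 CPM in CTRL and 21.6, 21.1 and 23.9 CPM in CHD4-APR, without overlap (log2 fold change −0.28 ± 0.073, edgeR FDR 0.00699). Mrpl12 did not pass with the length and GC correction described below (−0.11, edgeR FDR 0.24). Mrpl58, a peptidyl-tRNA hydrolase built into the large subunit that frees stalled ribosomes, was at 44.8, 36.9 and 35.9 CPM against 32.2, 32.9 and 35.0 CPM (−0.23 ± 0.075, edgeR FDR 0.0215). The gap was narrow for Mrpl58, and its FDR went above 0.05 when CTRL replicate 1, CHD4-APR replicate 1 or CHD4-APR replicate 2 was left out. Mrps36, the oxoglutarate dehydrogenase adaptor, was at 64.9, 60.5 and 58.9 CPM against 49.8, 50.02 and 56.1 CPM (−0.24 ± 0.058, edgeR FDR 0.00371).

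The 3 Mrps18 paralogs derive from a single bacterial protein but occupy different places. Mrps18a, of the large subunit, was at 72.7, 67.0 and 65.9 CPM in CTRL and 55.9, 60.1 and 59.5 CPM in CHD4-APR. Mrps18b, of the small subunit, was at 28.1, 30.5 and 28.7 CPM against 23.1, 27.8 and 25.6 CPM. Mrps18c, the small-subunit member that keeps the bacterial position, was at 34.2, 35.1 and 32.9 CPM against 27.5, 29.5 and 32.2 CPM. All fell, with edgeR log2 fold changes of −0.23, −0.19 and −0.20 and FDRs of 0.00275, 0.0413 and 0.0249, and the highest treated library came close to the lowest control in Mrps18b and Mrps18c. The FDRs of those genes rose above 0.05 on leaving out single libraries of either group, in 4 of 6 cases for Mrps18b and 3 of 6 for Mrps18c. Mrps18b did not pass with the length and GC correction described below (−0.072, edgeR FDR 0.477).

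Some members did not pass the test. Mrps30, the other large-subunit gene under a small-subunit symbol, was at 41.9, 43.1 and 43.7 CPM in CTRL and 39.7, 42.8 and 41.8 CPM in CHD4-APR (log2 fold change −0.050 ± 0.053, edgeR FDR 0.495). It was called lower with the length and GC correction described below (−0.35, edgeR FDR 9.33e-05). Mrps31, specific to mitochondria, was at 21.6, 23.4 and 22.5 CPM against 22.5, 22.6 and 23.3 CPM (0.018 ± 0.063, edgeR FDR 0.851). Mrps22, also mitochondria-specific, was at 16.3, 17.8 and 16.2 CPM against 14.9, 18.1 and 15.9 CPM (−0.039 ± 0.081, edgeR FDR 0.739). In these genes the libraries of the groups were interleaved.

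On the large-subunit side, the mitochondria-specific genes Mrpl48 and Mrpl50 were closest to no change without the length and GC correction described below. Mrpl48 was at 37.2, 37.2 and 35.1 CPM in CTRL and 34.1, 36.7 and 36.4 CPM in CHD4-APR (log2 fold change −0.031 ± 0.056, edgeR FDR 0.702). With the correction it was called lower (−0.25, edgeR FDR 0.00339). Mrpl50 was at 13.0, 12.7 and 11.3 CPM against 11.7, 13.3 and 11.9 CPM (−0.0029 ± 0.084, edgeR FDR 0.982). Mrps2, named after its values were seen as the only other member besides Mrps31 above 0, was at 28.2, 29.6 and 30.5 CPM against 29.0, 32.3 and 30.4 CPM (0.056 ± 0.061, edgeR FDR 0.513). For none of these does the missing call show that the level was equal.

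Levels differed widely within the family although the proteins are largely used in equal numbers. Per kilobase of exon (RPKM, by the union of a gene's exons), Mrpl24 was highest with a mean of 74.9 over the 6 libraries, followed by Mrpl2 with 67.8, and among small-subunit genes Mrps21 with 62.0 and Mrps36 with 44.5. The lowest tested were Mrps6 with 1.34 and Mrps35 with 1.83, and Mrpl19 with 3.02 and Mrpl47 with 3.19 of the large subunit. Of its 1533 exonic bases, Mrps6 shares 159 with Slc5a3 and 305 with Gm49711 on the same strand. Its level therefore depends on how such reads were counted. The highest of the 77 was 56.1 times the lowest by union exon length and 61.9 times by the length of the principal transcript, with a rank correlation of 0.798 between both scales. The order depends on that length: by principal transcript Mrpl30 led, then Mrpl24.

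Genes at both ends of this order were called lower. Mrpl24 was at 183, 176 and 173 CPM in CTRL and 160, 158 and 162 CPM in CHD4-APR, and fell by 9.92% (log2 fold change −0.15 ± 0.042, edgeR FDR 0.00986; not called without CHD4-APR replicate 2). Mrps21 was at 53.4, 47.4 and 46.1 CPM against 41.4, 41.5 and 45.4 CPM (−0.20 ± 0.063, edgeR FDR 0.0211). Mrps35, near the bottom, was at 17.2, 17.7 and 15.9 CPM against 13.1, 15.6 and 15.1 CPM (−0.22 ± 0.080, edgeR FDR 0.042). The treated libraries of these genes were all below their controls. With the length and GC correction described below Mrpl24 (−0.091, edgeR FDR 0.0701) and Mrps21 (−0.020, edgeR FDR 0.811) did not pass. Mrps35 still passed as lower (−0.47, edgeR FDR 3.42e-04). The FDR went above 0.05 in 3 of 6 cases of leaving out a library for Mrps21 (CTRL replicate 1, CHD4-APR replicates 1 and 2) and in 4 of 6 for Mrps35 (CTRL replicates 1 and 2, CHD4-APR replicates 1 and 3).

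Mrps25, lower still than Mrpl19 by RPKM (2.73) and named after its values were seen, was at 19.3, 19.4 and 20.0 CPM against 16.3, 16.8 and 15.8 CPM and fell (log2 fold change −0.27 ± 0.066, edgeR FDR 0.00449). Of its 6576 exonic bases 4590 are shared with Nr2c2 on the other strand, and of the 5450 of Mrpl19 1962 with Gcfc2, so that their levels and ranks depend on how such reads were counted. The low-level genes Mrpl19, Mrpl47 and Mrps6 did not pass the test. Mrpl19 was at 17.7, 18.2 and 15.8 CPM against 16.0, 15.7 and 15.3 CPM (log2 fold change −0.14 ± 0.073, edgeR FDR 0.147). Mrpl47 was at 15.8, 13.9 and 15.1 CPM against 11.6, 15.0 and 13.4 CPM (−0.16 ± 0.091, edgeR FDR 0.172). Mrps6 was at 2.29, 2.07 and 2.08 CPM against 1.52, 2.06 and 2.27 CPM (−0.14 ± 0.18, edgeR FDR 0.582), and with a standard error that large a change of the family's median size was not detectable at this depth. Mrpl53 had 0 counts in all 6 libraries and was not tested. On the same strand, 695 of the 790 exonic bases of Mrpl53 are shared with the protein-coding gene Gm42688, which was at 13.3 CPM in CTRL and 9.56 in CHD4-APR (log2 fold change −0.48, edgeR FDR 6.51e-04).

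Shared exons touched other members too. Exonic bases of 33 members are shared with another gene, and the strand setting of the counting is not given in the sources used here. Of the 45 members with no such overlap 30 fell, with a median log2 fold change of −0.18, and of the 32 tested members with overlap 23 fell, with a median of −0.20. With the length and GC correction described below, 25 of 45 without overlap were lower (median −0.16) and 13 of 32 with overlap (median −0.11), of which 7 of the 22 that overlap a protein-coding gene (median −0.093). The differences were not tested. Among 5 annotated Mrp pseudogenes 4 were tested and 2 were called lower, Mrpl23-ps1 (−0.44, edgeR FDR 0.00135) and Mrps36-ps1 (−0.25, edgeR FDR 0.0266), of which the latter lost its call in 3 of 6 cases of leaving out a library and with the length and GC correction (−0.13). Reads of such copies cannot be told apart from those of their parent genes with certainty.

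The count of members that fell was also taken by motif, and the differences were not tested. Of the tested members with CCGGAAG in a window, 19 of 25 fell with a median log2 fold change of −0.20, and of those without it 26 of 43 fell with a median of −0.18. With AAGATGGC, 9 of 12 fell (median −0.20), and without it 36 of 56 (−0.18). With the NRF1 letters, 10 of 13 fell (median −0.18), and without it 35 of 55 (−0.19). Medians with and without the other motifs were −0.22 and −0.19 for AGATAA and −0.22 and −0.18 for CCAAT. They were −0.23 and −0.19 for CACGTG and −0.19 and −0.19 for GGGGCGGGG. In other tested genes the medians were −0.041 with CCGGAAG and 0.011 without it, and −0.032 with AAGATGGC and 0.0014 without it. Over all tested genes 17.8% were called lower.

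Many Mrp genes share their start region with a gene on the opposite strand. For 25 members such a neighbor began within 500 bases. Of these members 19 fell, with a median log2 fold change of −0.20, beside 53 of all 77 tested members. Mrps11 and Mrpl46 form such a pair with each other, 412 bases apart, and both fell (−0.32 and −0.24, edgeR FDRs 0.00182 and 0.0341). They share 173 exonic bases on opposite strands, so their counts may not be independent, and Mrpl46 was called in 13 of 20 settings and did not pass with the length and GC correction described below (−0.087, edgeR FDR 0.442). Of the 23 partners outside the family 6 were called lower, 1 higher and 16 not, with a median of −0.14. Over all tested genes 17.8% were called lower and 20.4% higher. Partners that fell included Ndufs6, a complex I subunit gene that starts 29 bases from Mrpl36 (−0.24, edgeR FDR 0.0249), while Wdfy1, 125 bases from Mrpl44, rose (0.18, edgeR FDR 0.00329). These partners were named after their values were seen. On opposite strands, Mrpl36 shares 30 exonic bases with Ndufs6 and Mrpl44 shares 126 with Wdfy1, so these counts may not be independent either. Mrpl36 did not pass with the length and GC correction (−0.094, edgeR FDR 0.251).

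**Figure D3:**
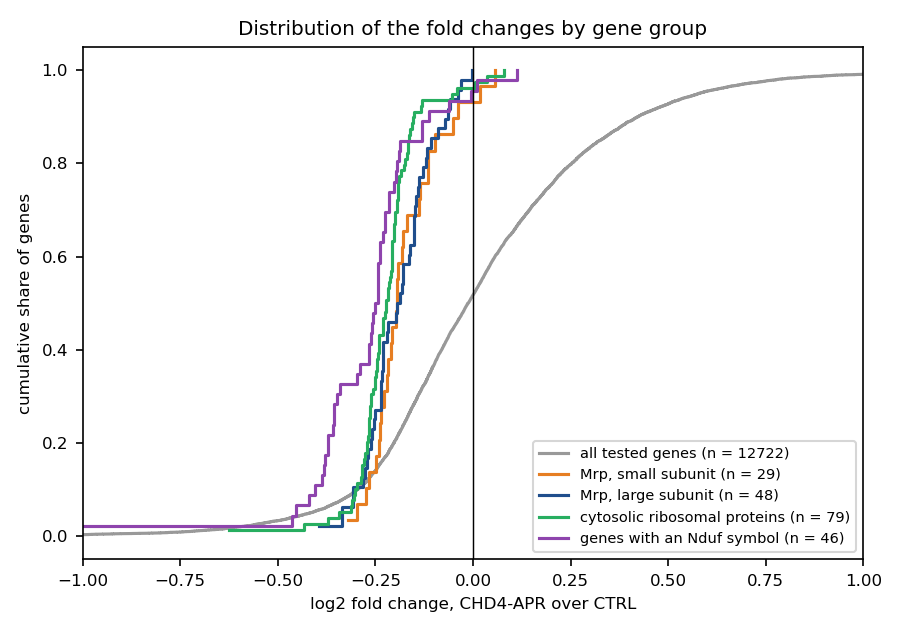
Cumulative share of genes against log2 fold change of CHD4-APR over CTRL for all 12722 tested genes, the small (29) and large (48) mitoribosomal subunits, cytosolic ribosomal protein genes (79) and genes with an Nduf symbol (46), shown between −1 and 1. All 4 gene groups lie left of the curve of all genes, with medians of −0.20, −0.19, −0.22 and −0.25 against −0.012.

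The shift was shared with other protein families of translation and respiration. Of 79 cytosolic ribosomal protein genes 73 were called lower and 0 higher, with a median of −0.22, and of 46 genes with an Nduf symbol, most of which encode subunits or assembly factors of complex I (Ndufa4 encodes a subunit of complex IV), 39 were lower and 0 higher, with a median of −0.25. These values come from the same 6 libraries, and no difference from the Mrp genes was tested. The mitochondrial mRNAs that the mitoribosome translates had 5 of 13 lower and 1 higher, with a median of −0.10. Among them mt-Nd3 (−0.32, edgeR FDR 3.71e-04) and mt-Nd6 (−0.29, edgeR FDR 0.00212) fell and mt-Nd4l (0.19, edgeR FDR 0.00161) rose, all subunits of complex I.

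Of 5 mitoribosomal protein genes with other symbols, Aurkaip1 (log2 fold change −0.29, edgeR FDR 6.48e-04) and Gadd45gip1 (−0.22, edgeR FDR 0.00628) fell and 3 did not pass, with a median of −0.14. Among 26 tested genes for mitoribosome assembly and rRNA modification 7 fell and 2 rose, with a median of −0.15. Rpusd3, a mitochondrial pseudouridine synthase gene (−0.44, edgeR FDR 4.68e-04), and Mtg2, a GTPase of large-subunit assembly (−0.25, edgeR FDR 0.00245), fell. Mterf3 (0.22, edgeR FDR 0.0159) and Mettl15, an rRNA methyltransferase of the small subunit (0.34, edgeR FDR 0.0486), rose, but neither passed with the length and GC correction described below (0.021 and 0.25, with 7 of the list lower and 0 higher). The FDR of Mettl15 was also above 0.05 with DESeq2, with limma-voom and in 5 of 6 cases of leaving out a library, and that of Mterf3 in 2 of 6.

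Of 15 mitochondrial translation factors and mRNA-binding proteins 5 fell and 0 rose, with a median of −0.063, among them the mRNA-stabilizing protein gene Slirp (−0.37, edgeR FDR 2.06e-04) and the elongation factor gene Tufm (−0.20, edgeR FDR 0.00233). Of 17 mitochondrial aminoacyl-tRNA synthetase genes, which charge tRNAs, Lars2 (−0.53, edgeR FDR 0.00173) and Fars2 (−0.18, edgeR FDR 0.0238) fell, Mars2 (0.47, edgeR FDR 0.00385) rose, though not with the length and GC correction described below (0.081), and 14 did not pass, with a median of −0.025. With that correction 4 of the 17 were lower and 0 higher, with a median of −0.032. Of 21 tested import genes 8 fell and 1 rose, with a median of −0.13, with Timm8b (−0.28, edgeR FDR 3.42e-04) and Timm17b (−0.26, edgeR FDR 0.00278) lower and the receptor gene Tomm70a (0.21, edgeR FDR 0.00228) higher. The correction turned Tomm70a to lower (−0.14, and −0.20 on the principal transcript).

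Genes for copying and transcribing mitochondrial DNA showed 1 fall and 1 rise among 10, with a median of 0.047. With the length and GC correction described below 2 were lower and 1 higher, with a median of −0.024. Ssbp1, the single-strand binding protein gene, fell (−0.19, edgeR FDR 0.0214), and Tfb2m, a transcription initiation factor gene, rose (0.33, edgeR FDR 8.86e-04). Of 10 tested genes for nuclear regulators of mitochondrial genes 2 fell and 5 rose, with a median of 0.080, and with the length and GC correction 3 were lower and 3 higher, with a median of −0.013. Yy1 rose from 72.4 to 96.3 CPM (0.41, edgeR FDR 8.21e-06), and Gabpa, the ETS subunit of GABP, from 27.2 to 36.5 CPM (0.42, edgeR FDR 5.06e-05). Esrra (−0.28, edgeR FDR 0.00932) and Max (−0.13, edgeR FDR 0.0193) fell. On leaving out single libraries the FDR went above 0.05 in 4 of 6 cases for Fars2 and Max, in 3 for Ssbp1 and in 1 for Esrra.

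**Figure D4:**
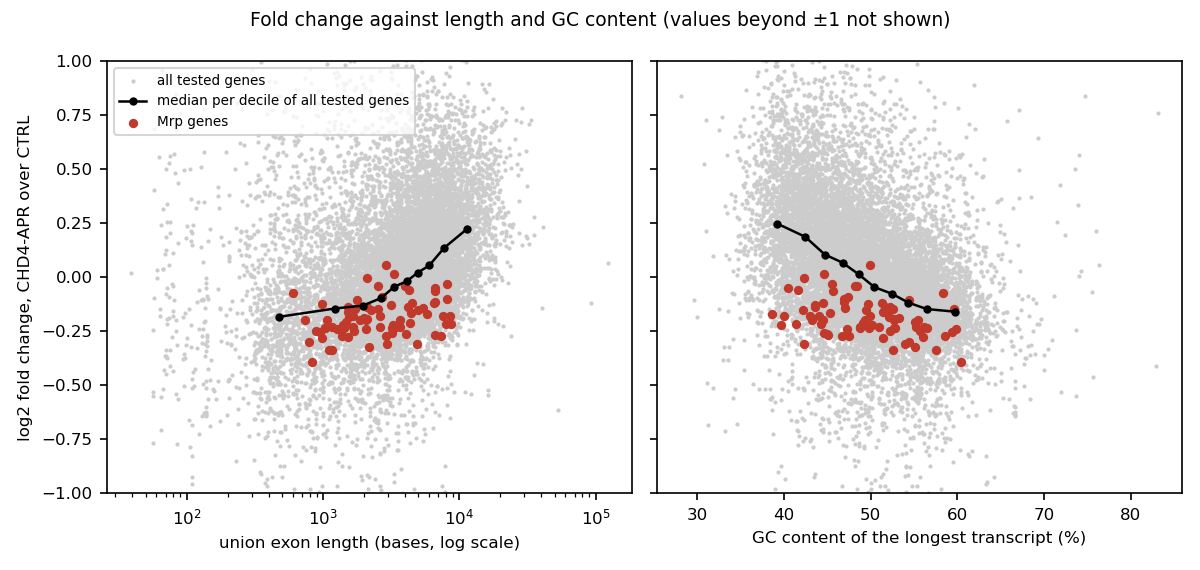
Log2 fold change of CHD4-APR over CTRL against union exon length (left, bases, log scale) and GC content of the longest transcript (right, percent) for all tested genes (grey) and the Mrp genes (red), with black points for the median of each decile of all tested genes. Over all genes the fold change rises with length (Spearman's rho 0.41) and declines with GC content (rho −0.46), and the Mrp genes lie mostly below the black line.

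Fold changes moved with transcript length and GC content in all genes, and the Mrp transcripts are short. The median union exon length was 2533 bases for the tested Mrp genes and 3688 bases for all tested genes. Among the shortest length quartile of all genes (up to 1959 bases) the median log2 fold change was −0.15 and 25.7% were called lower. The 30 members there had a median of −0.23, and 25 fell. In the longest quartile (above 6015 bases) all genes had a median of 0.16 with 5.93% called lower, while the 12 members there had a median of −0.15 and 6 fell.

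The quartiles between showed the same order. From 1959 to 3688 bases 15 of 23 members fell with a median of −0.19, beside −0.082 and 24.3% for all genes, and from 3688 to 6015 bases 7 of 12 fell with a median of −0.16, beside 0.011 and 15.6%. Across the 77 members the fold change correlated with log2 length (Pearson's r 0.32, rho 0.34) and with GC content (r −0.36, rho −0.37). Over 12677 genes the values were 0.31 and 0.41 for length and −0.40 and −0.46 for GC content. These correlations are across genes that share the same 6 libraries.

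After a correction for this trend fewer members passed and none rose. With each library's smooth trend on length and GC content entered as an offset, 38 of 77 members (49.4%) were lower at an edgeR FDR under 0.05 and 0 higher, with 47 lower and 0 higher at an unadjusted p under 0.05. Over all genes 16.0% were then lower and 11.7% higher at that FDR, and their share at the unadjusted p was not counted. The median of the members was −0.13, beside −0.024 for all genes, with 15 of 29 small-subunit and 23 of 48 large-subunit genes lower and a median of −0.13 in both. Of the 53 genes called lower without the correction, 27 were also called lower with it. With the length and GC content of the principal transcript instead, an alternative chosen after seeing the data, 29 members (37.7%) were lower and 0 higher, with a median of −0.11, beside 13.1% of all genes lower and a median of −0.023. Under that alternative the small subunit had 10 lower and a median of −0.075 and the large subunit 19 lower and a median of −0.11.

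The correction changed which members passed. Mrpl28, with the smallest FDR before, had a corrected log2 fold change of −0.094 (edgeR FDR 0.103), and Mrps15, Mrps34, Mrpl12, Mrpl24, Mrps21 and Mrps18b likewise no longer passed. Mrps30 (−0.35, edgeR FDR 9.33e-05) and Mrpl48 (−0.25, edgeR FDR 0.00339), long genes near 0 without it, passed as lower, as did Mrpl19 and Mrpl47. Members called lower in all 20 settings planned, leaving out each library in turn included, numbered 15. They were Mrpl2, Mrpl11, Mrpl20, Mrpl23, Mrpl30, Mrpl33, Mrpl51, Mrpl54, Mrpl57, Mrps11, Mrps14, Mrps16, Mrps18a, Mrps25 and Mrps36, of which Mrpl11, Mrpl20, Mrpl33, Mrpl57, Mrps16 and Mrps25 were named after their values were seen. With the principal transcript Mrpl23, Mrps11 and Mrps18a were not called.

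**Figure D5:**
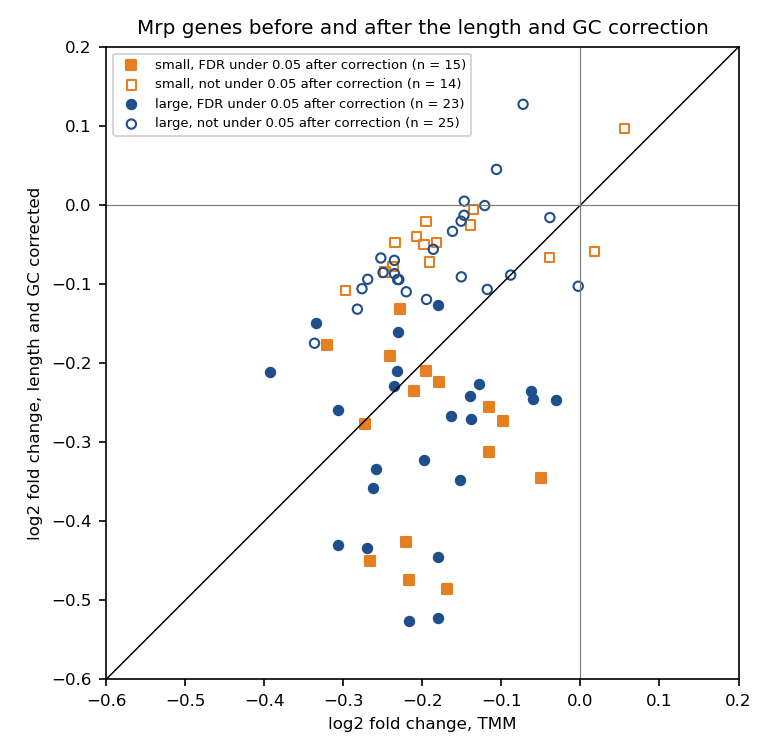
Log2 fold change of each tested Mrp gene after the length and GC correction (vertical) against the value with TMM scaling alone (horizontal); squares are small-subunit and circles large-subunit genes, filled where the FDR after correction is under 0.05, and the diagonal marks equal values. Filled symbols number 15 of 29 and 23 of 48, and genes above the diagonal lost part of their fall, such as Mrpl2 from −0.33 to −0.15, while genes below it gained, such as Mrps30 from −0.050 to −0.35.

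The same correction changed several of the related genes. Yy1 and Gabpa still passed as higher. With the principal transcript Gabpa was at 0.073 and no longer passed. The mitochondrial mRNAs had 10 of 13 lower and 1 higher, with a median of −0.25. The cytosolic ribosomal protein genes had 45 of 79 lower, with a median of −0.13, and the Nduf genes 27 of 46, with a median of −0.21. Import genes had 12 of 21 lower and 0 higher (median −0.14), and translation factors 7 of 15 lower and 1 higher (median −0.14). How far the length and GC trend accounts for the fall of the Mrp genes was not tested.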

How the data were processed

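The authors trimmed the reads with cutadapt, aligned them with STAR 2.7.10a to GRCm38 and assigned them to Ensembl genes with featureCounts. The deposited values are raw read counts, and 2 further columns match no sample and were not used. Strand and multi-mapping settings are not given in the sources used here.

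Genes were named with GENCODE M21 on GRCm38, which held 48349 of 48709 identifiers. Counts of 3 CTRL and 3 CHD4-APR libraries were compared with edgeR 4.0.16 (R 4.3.3; filterByExpr, TMM, quasi-likelihood test with group as the single term) over 12722 genes, and an FDR (Benjamini-Hochberg) under 0.05 was the threshold. Log2 CPM used a prior count of 2, and levels and plots TMM-normalized CPM. The length and GC correction fitted each library's deviations with mgcv 1.9.3 (tensor product, basis dimension 5). Alternatives were DESeq2 1.42.0, limma 3.58.1 with voom, other scalings and filters (at least 10 counts in every library), an FDR of 0.01, protein-coding genes alone, no hemoglobin genes, a replicate block and leaving out each library. Same-numbered libraries of both groups deviated together with correlations of 0.070, 0.055 and −0.035, so that the numbers were not taken as pairs. The code was tested on simulated data.

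Members, lists and tests were chosen with earlier results of these data known. The genes named were the 6 lower genes of each subunit with the smallest FDR, the 2 highest and 2 lowest by RPKM, the 2 closest to no change, those with the roles described, every untested member, and the 2 of each list with the smallest FDR in each direction, apart from those said to be named otherwise. Promoter windows came from RefSeq.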

Additional observations from a re-analysis of the deposited data

How the results depend on the processing

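Members called higher numbered 0 in every setting, and the family's median lay between −0.22 and −0.11, while the small-minus-large difference of medians changed sign in 4 settings, from −0.00501 to as much as 0.0395 on the principal transcript. Scaling by total counts gave 35 members lower (12 of the small subunit) and split all calls into 1474 lower and 2959 higher, where TMM gave 2270 and 2601, upper quartile scaling 2601 and 2419, and the length and GC correction 2022 and 1479. At an FDR under 0.01, 30 members (39%) were lower, 10 small and 20 large, beside 10.3% of all genes lower. With the length and GC correction the medians were −0.13 for all members, −0.13 for the small and −0.13 for the large subunit, and −0.13, −0.13 and −0.13 with the replicate block added. On the principal transcript, an alternative chosen after seeing the data, 2908 of all genes were called, with 29 members lower (median −0.11), 10 small (−0.075) and 19 large (−0.11). The replicate block alone called 5214 genes and 55 members lower, and is given only because the libraries share numbers. Leaving out 1 library at a time gave 34 to 49 members lower, 13 to 19 small and 21 to 32 large, with the lowest counts without CHD4-APR replicate 1, and all genes called between 3703 and 4928. Among related genes, Tomm70a turned from 0.21 to −0.14 with the length and GC correction, to −0.14 with the block added and to −0.20 on the principal transcript, and Mars2 from 0.47 to −0.045 on the principal transcript. The cause was not tested. Mrps6 had the lowest counts, from 68 per library, and the widest standard error of the members named.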
